A study of Mus musculus with 18 samples.

Results

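The 9 genes described here code for complement components and receptors: the C1q chains C1qa, C1qb and C1qc, the components C2, C3 and C4b, properdin (Cfp), and the anaphylatoxin receptors C3ar1 and C5ar1. They were chosen by symbol from the 53465 genes of the count table, and each symbol matched 1 gene. Expression was measured by RNA sequencing (RNA-seq) in microglia and in macrophages sorted from the contused spinal cord of C57BL/6J mice. The study's purpose was to compare how these cells respond to interleukin-4 and interleukin-13 after spinal cord injury (SCI). The 9 mice were female and 8 to 10 weeks old, and all of them had a contusion at thoracic level 11. At 48 h after the injury, 3 mice were injected in the lesion with PBS (mice 1, 2 and 3), 3 with 100 ng of recombinant interleukin-13 (rIL-13, mice 5, 6 and 7) and 3 with 100 ng of recombinant interleukin-4 (rIL-4, mice 8, 9 and 10). Both cell types were collected from each mouse 24 h later, which gave 18 libraries in 6 groups of 3. Microglia were sorted as CD45-low, CD11b+ and F4/80+ cells and macrophages as CD45-high, CD11b+ and F4/80+ cells. All mice were injured and injected, so that PBS is the reference for each cytokine and no value stands for the uninjured cord.

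Complement is a cascade of plasma and tissue proteins that tags cells, debris and synapses for removal. C1q binds a target and starts the classical pathway, in which C4 and C2 form the enzyme that cleaves C3, while properdin stabilises the C3-cleaving enzyme of the alternative pathway. Fragments released from C3 and C5 act on the receptors C3aR and C5aR1 of myeloid cells. In the central nervous system, microglia are the main source of C1q, and C1q with C3 is known for the tagging of synapses that microglia then remove.

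Libraries held from 35961305 to 45849829 counts, of which the 9 genes made up 0.355% to 0.961%. Levels are given as counts per 1000000 (CPM) on library sizes scaled by TMM over the 18 libraries, and a gene was differentially expressed (DE) where edgeR's quasi-likelihood test gave an adjusted p under 0.05. The samples are 3 separate mice per group, and the labels do not say whether cords were processed on the same day. Whether groups overlapped is given as a description, and how often groups did not overlap over all genes was not computed. Because these are pools of sorted cells, fewer cells of a type and less RNA per cell cannot be told apart. The labelled cell types were checked on marker lists. The summed level of 11 microglia markers was between 8187 and 14331 CPM in PBS microglia and between 3028 and 4556 CPM in PBS macrophages, so that transcripts on the microglia list were also present in macrophage libraries. It was between 3505 and 5634 CPM in rIL-4 microglia and between 504 and 886 CPM in rIL-4 macrophages. Ccr2, the chemokine receptor of infiltrating monocytes, was at 10.3 to 63.1 CPM in microglia and at 156 to 553 CPM in macrophages. Microglia libraries further held transcripts on the list of fibroblasts and pericytes, with a summed level of 9 markers between 232 and 8169 CPM against at most 9.64 CPM in macrophages, and 6 endothelial markers summed to between 715 and 2350 CPM against 44.2 to 429 CPM. Lymphocyte markers summed to at most 0.824 CPM.

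All 9 genes lie on the minus strand of GRCm38 in the GENCODE annotation and are protein coding. C1qa (ENSMUSG00000036887.5, chr4:136895917-136898803), C1qc (ENSMUSG00000036896.5, chr4:136889804-136893065) and C1qb (ENSMUSG00000036905.8, chr4:136880129-136886187) are neighbours. On chromosome 17 lie C4b (ENSMUSG00000073418.4, chr17:34728380-34743882), C2 (ENSMUSG00000024371.14, chr17:34862604-34898265) and C3 (ENSMUSG00000024164.15, chr17:57203970-57228136). Cfp (ENSMUSG00000001128.7) is at chrX:20925454-20931555, C3ar1 (ENSMUSG00000040552.8) at chr6:122847138-122856161 and C5ar1 (ENSMUSG00000049130.6) at chr7:16246743-16259540. C2 shares exon sequence with Gm20547 and, on the other strand, with Zbtb12, and the libraries carry no strand information, so that a part of the few C2 reads could belong to these genes. C4b has a near-identical copy, C4a, and reads of the pair are divided between them.

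Promoter sequences are shown for C3 and Cfp, the members that rose with a cytokine, and for C1qb, the C1q chain with the most reads. They are the 250 bases before the RefSeq transcription start (GRCm38.p6, minus strand, printed 5′ to 3′), a table that holds 6 of the 9 members. Capitals mark matches to motifs searched on both strands. C3 (chr17:57228137-57228386) has a match to the C/EBP motif TTGCNNAA at 45 to 38 bases before the start, which 9.56% of 32851 promoters of this length hold. C1qb (chr4:136886201-136886450) has a match to the PU.1 motif GAGGAA at 30 to 25 bases before the start, which 23.3% of promoters hold. Cfp (chrX:20931556-20931805) has no match. None of the 3 has a match to the STAT6 motif (TTC and GAA with 4 bases between them), which is found in 5.85% of promoters. These are matches of letters and were not tested as binding sites.
C3: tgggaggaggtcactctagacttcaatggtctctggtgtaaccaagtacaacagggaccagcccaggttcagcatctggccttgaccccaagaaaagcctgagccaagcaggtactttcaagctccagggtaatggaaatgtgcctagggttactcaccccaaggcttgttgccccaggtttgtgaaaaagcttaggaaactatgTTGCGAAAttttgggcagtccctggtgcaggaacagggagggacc
Cfp: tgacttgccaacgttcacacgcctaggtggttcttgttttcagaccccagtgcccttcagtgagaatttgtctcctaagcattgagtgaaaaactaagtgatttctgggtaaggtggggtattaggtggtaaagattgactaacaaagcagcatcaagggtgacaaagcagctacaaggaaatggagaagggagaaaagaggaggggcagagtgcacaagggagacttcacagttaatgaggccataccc
C1qb: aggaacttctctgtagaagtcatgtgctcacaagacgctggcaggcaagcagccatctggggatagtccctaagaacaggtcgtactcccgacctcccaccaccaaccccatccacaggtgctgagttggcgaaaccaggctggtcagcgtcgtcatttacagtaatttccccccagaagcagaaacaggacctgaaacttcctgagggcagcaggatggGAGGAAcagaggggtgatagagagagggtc

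**Figure D1:**
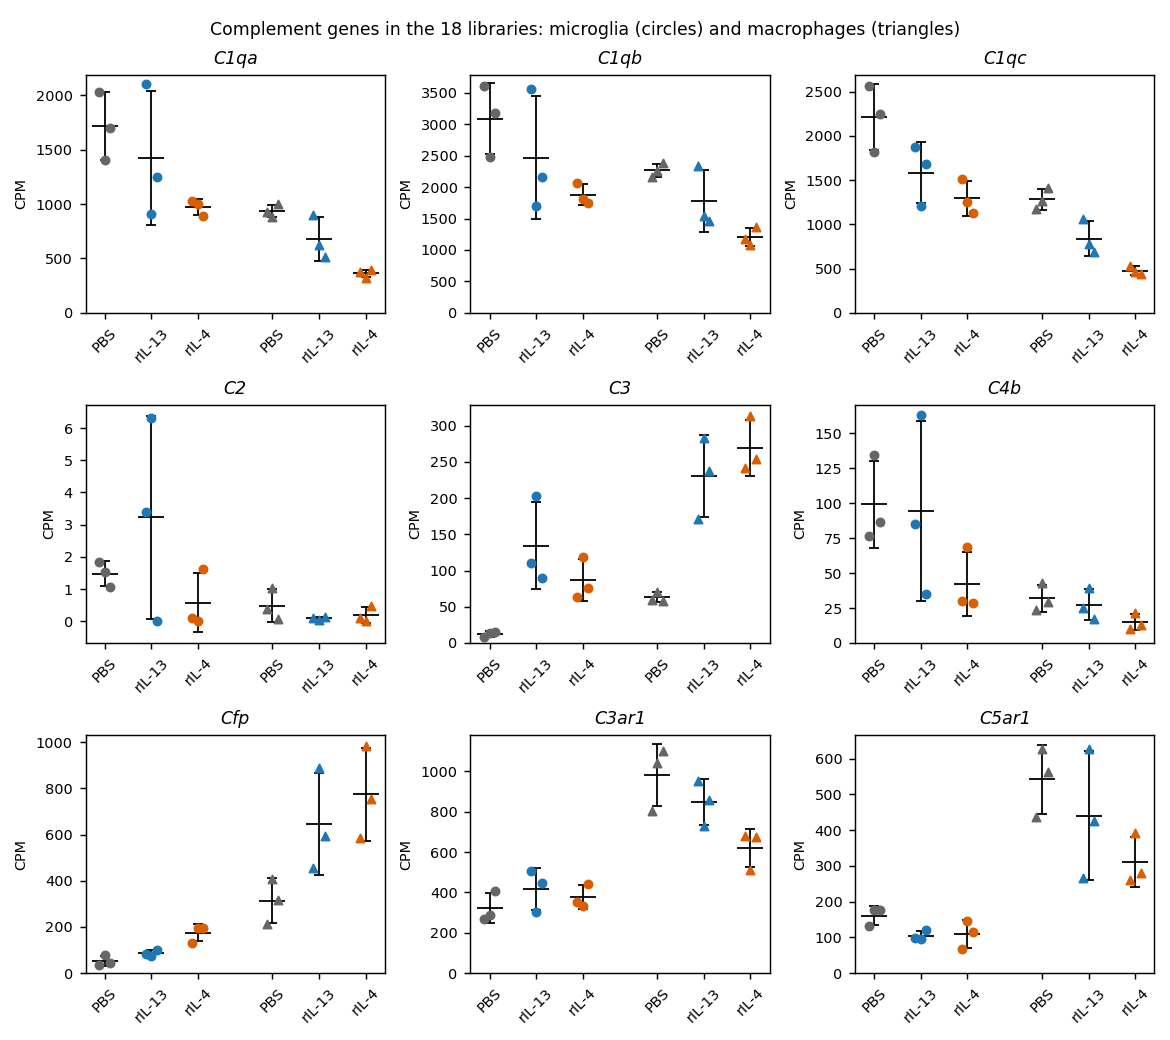
Level of each of the 9 genes in the 18 libraries, in CPM on a scale of its own per gene, with microglia and macrophages of each treatment on the horizontal axis. Each point is 1 mouse, and the line and bar are the mean and SD of 3 mice. C3 and Cfp sit higher with either cytokine than with PBS in macrophages, and the C1q chains sit lowest in rIL-4 macrophages.

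Per kilobase of exon, which allows genes to be compared, the C1q chains held the highest levels in PBS microglia: 2843 ± 525 CPM per kb (SD, n = 3) for C1qb, 1649 ± 301 for C1qa and 1145 ± 194 for C1qc. They were followed by C3ar1 at 74.7 ± 17.4, C5ar1 at 62.7 ± 10.0, Cfp at 30.1 ± 13.1, C4b at 17.4 ± 5.49, C3 at 2.37 ± 0.767 and C2 at 0.381 ± 0.101 CPM per kb. C3ar1 and C5ar1 lay within their spread of each other, and so did Cfp and C4b. In PBS macrophages, C1qb at 2083 ± 101, C1qa at 901 ± 54.8 and C1qc at 665 ± 61.5 CPM per kb were again highest. C3ar1 at 228 ± 36.0, C5ar1 at 211 ± 37.3 and Cfp at 180 ± 56.2 CPM per kb overlapped in their spread there. With rIL-4, Cfp reached the second place in macrophages at 446 ± 115 CPM per kb, after C1qb at 1107 ± 132 and before C1qa at 348 ± 33.3, and the spreads of Cfp and C1qa met. C3 stayed in the seventh or the eighth place in each group.

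Against PBS, C3 and Cfp were the members DE in rIL-4 microglia, where both were higher, while 2.22% of the 15566 genes tested were DE and 1.33% were DE and higher. In rIL-13 microglia, C3 alone of the 9 was DE, with 0.366% of all genes DE and 0.283% DE and higher. In rIL-4 macrophages, 6 of the 9 were DE: C3 and Cfp rose, and C1qa, C1qb, C1qc and C3ar1 fell. The background there was 14% of 13606 genes, with 6.77% higher and 7.2% lower. In rIL-13 macrophages, C3 was again the DE member, against a background of 4.19%, with 2.53% higher. In microglia, the median log2 fold change of the 9 members was -0.70 with rIL-4 and -0.07 with rIL-13, and in macrophages it was -0.91 with rIL-4 and -0.29 with rIL-13, while the median of all genes tested was between -0.06 and 0.02. The comparisons with PBS in a cell type share the 3 PBS libraries. Between rIL-4 and rIL-13, 0 of the 9 members were DE in microglia or in macrophages, with backgrounds of 0.0385% and 0.25%. At an unadjusted p under 0.05 by edgeR, that comparison held 1 of the 9 members in microglia (Cfp), where 11.4% of all genes did so, and 5 in macrophages (C1qa, C1qb, C1qc, C4b and C3ar1), where 11.1% did. DESeq2 called Cfp in microglia, with 3.58% of all genes, and C1qa and C1qc in macrophages, with 3.09%.

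**Figure D2:**
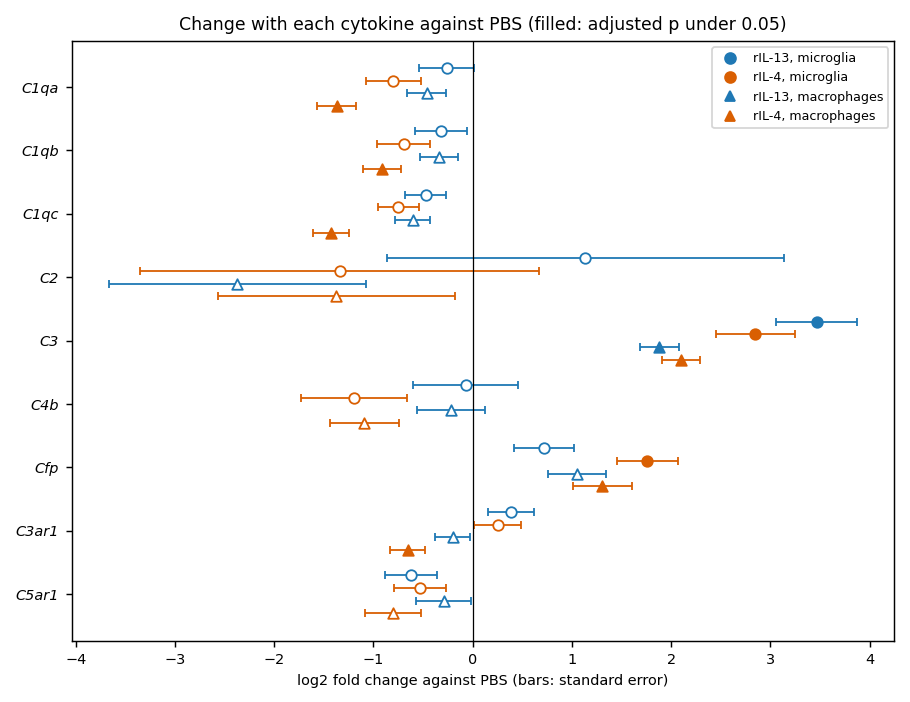
Log2 fold change of the 9 genes with rIL-4 and with rIL-13 against PBS in microglia and in macrophages, with the standard error (SE) as bars and filled points for an adjusted p under 0.05 by edgeR. C3 lies between 1.88 and 3.46 in the 4 comparisons, and the C1q chains lie below 0 in each of them, past the threshold with rIL-4 in macrophages.

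C1qa, C1qb and C1qc, the chains that together form the C1q molecule, fell in macrophages with rIL-4. C1qa was at 931, 883 and 997 CPM in the PBS macrophages of mice 1, 2 and 3, at 902, 621 and 511 CPM with rIL-13 in mice 5, 6 and 7, and at 374, 323 and 390 CPM with rIL-4 in mice 8, 9 and 10. All rIL-4 libraries lay below all others, and the rIL-13 library of mouse 5 lay within the PBS range. C1qb was at 2163, 2255 and 2382 CPM with PBS, at 2344, 1533 and 1467 CPM with rIL-13 and at 1177, 1076 and 1359 CPM with rIL-4. C1qc was at 1174, 1266 and 1410 CPM with PBS, at 1054, 781 and 682 CPM with rIL-13 and at 533, 458 and 442 CPM with rIL-4. For each chain the rIL-4 libraries were the 3 lowest, and within the rIL-13 group mouse 5 was the highest. Against PBS, rIL-4 changed C1qa by a log2 of -1.37 (SE 0.20, adjusted p = 0.00171 by edgeR), C1qb by -0.91 (SE 0.19, adjusted p = 0.0120) and C1qc by -1.43 (SE 0.18, adjusted p = 0.000861). These are levels lower by 2.59, 1.88 and 2.69 fold. With rIL-13, the log2 differences were -0.46 (SE 0.20) for C1qa, -0.34 (SE 0.19) for C1qb and -0.61 (SE 0.18) for C1qc, with adjusted p of 0.249, 0.404 and 0.0981. C1qc did not overlap between rIL-13 and PBS, and it passed the threshold without rIL-13 mouse 5 (log2 -0.80, adjusted p = 0.0386) and with DESeq2 (adjusted p = 0.0186). Directly compared with rIL-13, the log2 differences of rIL-4 macrophages were -0.91 (SE 0.20) for C1qa, -0.57 (SE 0.19) for C1qb and -0.82 (SE 0.18) for C1qc, with edgeR adjusted p of 0.102, 0.289 and 0.105.

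In microglia, the C1q chains were lower with rIL-4 than with PBS in every library, but the differences did not pass the test. C1qa was at 2033, 1408 and 1703 CPM with PBS, at 2102, 911 and 1253 CPM with rIL-13 and at 1024, 998 and 885 CPM with rIL-4. C1qb was at 3609, 2480 and 3189 CPM with PBS, at 3562, 1694 and 2159 CPM with rIL-13 and at 2067, 1810 and 1752 CPM with rIL-4. C1qc was at 2566, 1821 and 2247 CPM with PBS, at 1872, 1203 and 1680 CPM with rIL-13 and at 1509, 1248 and 1125 CPM with rIL-4. The rIL-4 libraries did not overlap with the PBS libraries for any chain, whereas the rIL-13 group spanned both, with mouse 5 the highest and mouse 6 the lowest. The share of all genes without such overlap was not computed, so that this is a description of the chains. The log2 differences between rIL-4 and PBS were -0.80 (SE 0.28) for C1qa, -0.70 (SE 0.26) for C1qb and -0.75 (SE 0.21) for C1qc, with edgeR adjusted p of 0.196, 0.229 and 0.114. DESeq2 called C1qa (adjusted p = 0.0356) and C1qc (adjusted p = 0.00478), and a single edgeR model of all 18 libraries called C1qc (adjusted p = 0.0305). With rIL-13, the log2 differences were -0.26 (SE 0.28), -0.32 (SE 0.26) and -0.47 (SE 0.21) for C1qa, C1qb and C1qc, with adjusted p of at least 0.640. Between rIL-4 and rIL-13 microglia they were -0.54 (SE 0.28), -0.38 (SE 0.26) and -0.28 (SE 0.21).

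Between treatments, levels of the C1q chains moved in the same direction as those of the microglia markers, whose list holds no complement gene. In macrophages, all 11 microglia markers were DE and lower with rIL-4, and their summed level went from between 3028 and 4556 CPM with PBS to between 1260 and 2515 CPM with rIL-13 and between 504 and 886 CPM with rIL-4. Over the same libraries the summed C1q level was between 4268 and 4789, between 2660 and 4300, and between 1857 and 2190 CPM. In microglia, 5 of the 11 markers were DE and lower with rIL-4, and the summed level went from between 8187 and 14331 CPM with PBS to between 3505 and 5634 CPM, while C1q went from between 5709 and 8208 CPM to between 3762 and 4600 CPM. Within both cell types the rIL-13 library of mouse 5 was the highest of its group in C1q and in the microglia markers. The full order of mice was the same for both in PBS and rIL-13 microglia and differed in the other groups. In PBS macrophages, mouse 2 was lowest in the markers and above mouse 1 in C1q, at 4405 against 4268 CPM. Among rIL-4 macrophages, mouse 8 was highest in the markers and mouse 10 in C1q. The part of these marker changes in the C1q result was not tested. By Pearson correlation of log2 (CPM + 1) within the 9 microglia and within the 9 macrophage libraries, the 5 genes most like the mean of the C1q chains among 11189 included Ldhb (r = 0.963 and 0.973), Cx3cr1, Lpcat2 and Itm2b. Cx3cr1 is on the microglia list. The libraries of a cell type share treatment groups, so that these values are a description.

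**Figure D3:**
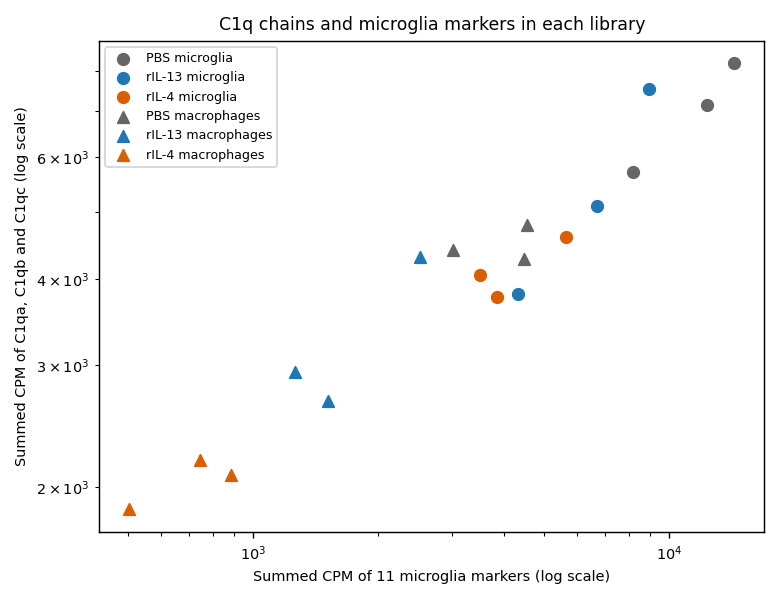
Summed level of the C1q chains against the summed level of the 11 microglia markers in each of the 18 libraries, both in CPM on log axes, with cell types and treatments marked. The rIL-4 macrophages lie at the lower left, with C1q between 1857 and 2190 CPM, and the PBS microglia at the upper right, with C1q between 5709 and 8208 CPM.

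The balance of the chains differed between the libraries of the cell types. Per kilobase of exon, C1qb made up 50.4% ± 0.674 (SD, n = 3) of the C1q signal in PBS microglia, 50.7% ± 1.70 in rIL-13 microglia and 51.9% ± 1.01 in rIL-4 microglia. It made up 57.1% ± 0.754 in PBS macrophages, 60.1% ± 1.53 in rIL-13 macrophages and 64.9% ± 2.28 in rIL-4 macrophages. Every macrophage library, at 56.5% or above, exceeded every microglia library, at 52.9% or below, and the rIL-4 macrophages did not overlap with the other groups. The share of C1qa was 29.3% ± 0.597, 30.2% ± 1.85 and 28.1% ± 1.26 in PBS, rIL-13 and rIL-4 microglia and 24.7% ± 0.952, 23.8% ± 1.25 and 20.5% ± 0.415 in the macrophages. The share of C1qc was 20.3% ± 0.241, 19.1% ± 3.18 and 20.1% ± 1.13 in microglia and 18.2% ± 0.714, 16.1% ± 0.741 and 14.6% ± 1.99 in macrophages, and the rIL-13 microglia of mouse 5, at 15.5%, lay within the macrophage range. The shares were not tested, and they rest on exon lengths that count every annotated exon.

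**Figure D4:**
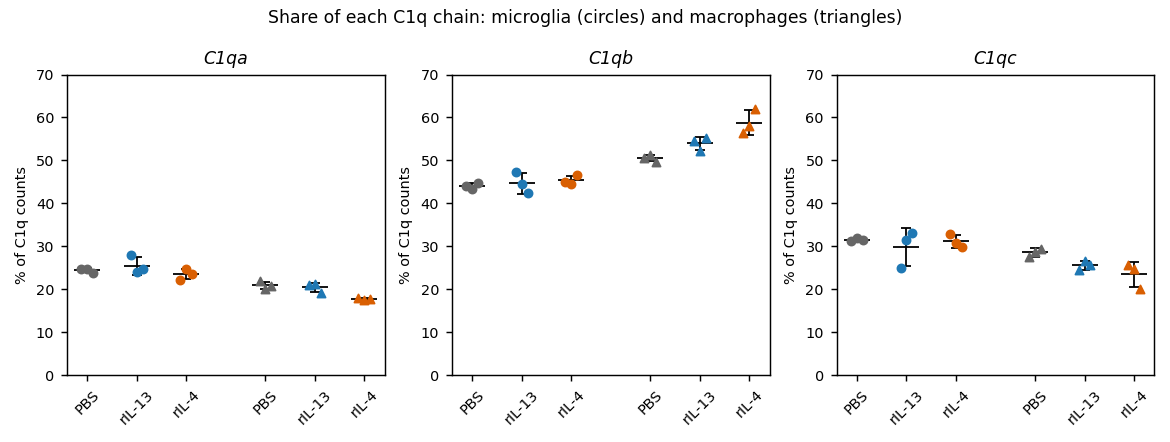
Share of each C1q chain in the C1q read counts (percent, not per kilobase) in the 6 groups, with microglia as circles and macrophages as triangles, a point for each mouse and the mean and SD of 3 mice. C1qb has the largest share in each library, with group means of 44.0% to 45.4% in microglia and 50.5% to 58.8% in macrophages.

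C2 and C4b, which supply the parts of the classical C3-cleaving enzyme, passed the test with neither cytokine. C2 had few counts: 75, 71 and 46 in PBS microglia, 145, 301 and 0 in rIL-13 microglia and 4, 0 and 60 in rIL-4 microglia, and between 0 and 34 in the macrophage libraries. The microglia values range from none to the highest within the rIL-13 group alone, and the groups overlapped. With SEs of the log2 difference between 1.19 and 2.01 against PBS, no change of C2 could be told from the spread between mice. C4b was at 76.2, 135 and 86.5 CPM in PBS microglia, at 84.8, 163 and 35.1 CPM with rIL-13 and at 29.8, 68.6 and 28.7 CPM with rIL-4. In macrophages, C4b was at 23.8, 42.9 and 29.1 CPM with PBS, at 25.3, 39.2 and 17.3 CPM with rIL-13 and at 10.2, 21.5 and 13.2 CPM with rIL-4. The rIL-4 libraries did not overlap with the PBS libraries in either cell type, and the rIL-13 libraries did. The log2 difference between rIL-4 and PBS was -1.20 (SE 0.54, edgeR adjusted p = 0.307) in microglia and -1.09 (SE 0.35, adjusted p = 0.0622) in macrophages. In macrophages C4b passed the threshold with DESeq2 (adjusted p = 0.0160), with no filter on low counts (0.0138), in a fit of the 6 libraries alone (0.0430) and without rIL-4 mouse 9 (0.0266). With rIL-13 the log2 differences were -0.07 (SE 0.53) and -0.22 (SE 0.34). The fibroblast and pericyte markers were highest in the rIL-13 microglia of mouse 6, at 8169 CPM, which also had the highest C4b. Their summed level was between 2582 and 3711 CPM in PBS microglia, where mouse 2 was highest in both. It was between 232 and 1602 CPM in rIL-4 microglia, where the order differed. There, mouse 9 had the highest C4b, at 68.6 CPM, with markers at 935 CPM. Mouse 8 had the most markers, at 1602 CPM, with C4b at 29.8 CPM. In macrophages the fibroblast and pericyte markers were at or below 9.64 CPM, with Lum at 0 in the rIL-4 libraries. Mice 2, 6 and 9 were the highest of their groups in C4b in macrophages as in microglia. The sort on CD45, CD11b and F4/80 is set to leave out such cells, and their part in the microglial C4b level was not tested.

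C3, the component on which all pathways converge, rose with both cytokines in both cell types. In microglia, C3 was at 7.80, 13.3 and 15.5 CPM with PBS, at 110, 203 and 90.2 CPM with rIL-13 and at 63.9, 119 and 75.9 CPM with rIL-4. Every cytokine library lay above every PBS library, and the cytokine groups overlapped. The log2 fold change was 3.46 (SE 0.41, adjusted p = 0.00807 by edgeR) with rIL-13 and 2.85 (SE 0.40, adjusted p = 0.00868) with rIL-4, or 11.04 and 7.20 fold. The rIL-13 result missed the threshold without PBS mouse 2 (log2 3.53, adjusted p = 0.0523). In macrophages, C3 was at 59.4, 70.7 and 58.3 CPM with PBS, at 171, 283 and 238 CPM with rIL-13 and at 241, 314 and 253 CPM with rIL-4. Again no cytokine library reached down to the PBS range. The log2 fold change was 1.88 (SE 0.19, adjusted p = 0.000764) with rIL-13 and 2.10 (SE 0.19, adjusted p = 0.000142) with rIL-4, or 3.68 and 4.29 fold, and both held without any single mouse. Between the cytokines, rIL-4 differed from rIL-13 by -0.62 (SE 0.37) in microglia and by 0.22 (SE 0.19) in macrophages on the log2 scale, with adjusted p of 0.612 and 0.732. The change with rIL-13 was 1.59 (SE 0.44) larger in microglia than in macrophages on the log2 scale, with an adjusted p of 0.401 by edgeR, 0.180 with the mouse as a block and 0.0488 by DESeq2. For rIL-4 this difference was 0.72 (SE 0.44, adjusted p = 0.578). In the microglia libraries, 8 markers of infiltrating monocytes and macrophages summed to between 1905 and 2504 CPM with PBS. Their sum was between 6721 and 9098 CPM with rIL-13 and between 13606 and 23633 CPM with rIL-4. With each cytokine, 1 of the 8 was DE and higher. The part of such cells in the microglial C3 level was not tested. By the likeness measure used for C1q, the 5 genes most like C3 among 11191 included Fcgrt (r = 0.957 in microglia and 0.932 in macrophages), Cd163, Tarm1 and Fcgr2b.

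Cfp, the stabiliser of the alternative pathway enzyme, rose with rIL-4 in both cell types. In microglia, Cfp was at 33.8, 77.7 and 45.3 CPM with PBS, at 82.4, 73.5 and 101 CPM with rIL-13 and at 132, 196 and 195 CPM with rIL-4. The rIL-4 libraries were the 3 highest, and the rIL-13 and PBS libraries overlapped. The log2 fold change with rIL-4 was 1.76 (SE 0.31, adjusted p = 0.0218 by edgeR), or 3.39 fold. It missed the threshold without PBS mouse 1 (log2 1.52, adjusted p = 0.0892), PBS mouse 3 (1.67, 0.115), rIL-4 mouse 9 (1.66, 0.0589) or rIL-4 mouse 10 (1.68, 0.0672). With rIL-13 it was 0.72 (SE 0.30, adjusted p = 0.612), and rIL-4 exceeded rIL-13 by 1.04 (SE 0.30), without overlap, at an adjusted p of 0.310 by edgeR and 0.0284 by DESeq2. In the same microglia, 8 markers of infiltrating monocytes and macrophages summed to between 1905 and 2504 CPM with PBS, between 6721 and 9098 CPM with rIL-13 and between 13606 and 23633 CPM with rIL-4. Most of the rIL-4 sum came from Chil3, a chitinase-like protein that macrophages also make in response to interleukin-4, at 50.4 to 251 CPM with PBS and 11483 to 20631 CPM with rIL-4, while Ccr2 was at 10.3 to 28.3 and 22.8 to 63.1 CPM. With rIL-4, 1 of the 8 markers was DE and higher in microglia, with a median log2 difference of 0.57 over the list, and none of the 8 was at 0 in any group. The part of such cells in the microglial Cfp level was not tested. In macrophages, Cfp was at 214, 410 and 315 CPM with PBS, at 455, 887 and 592 CPM with rIL-13 and at 586, 984 and 752 CPM with rIL-4. All cytokine libraries lay above all PBS libraries, and mice 2, 6 and 9 were the highest of their groups. The log2 fold change was 1.31 (SE 0.30, adjusted p = 0.0164) with rIL-4 and 1.05 (SE 0.29, adjusted p = 0.0828) with rIL-13. The rIL-4 result missed the threshold without PBS mouse 1 (log2 1.09, adjusted p = 0.0633) or mouse 3 (1.31, 0.0634). The rIL-13 result passed it with DESeq2 (adjusted p = 0.0131) and with no filter on low counts (0.0129). Neutrophils also make properdin, and 7 neutrophil markers summed to between 602 and 1153 CPM in PBS macrophages, between 433 and 2718 CPM with rIL-13 and between 203 and 694 CPM with rIL-4. Mice 2, 6 and 9, the highest of their macrophage groups in Cfp, were also the highest in these markers, at 1153, 2718 and 694 CPM. The same mice were also the highest of their macrophage groups in C3 and C4b, and of their microglia groups in C4b. In microglia the neutrophil list summed to between 87.1 and 249 CPM, with Csf3r at up to 167 CPM and Mpo at 0. The sort on F4/80 is set to leave out neutrophils, which the study gated as F4/80-. Their part in the result was not tested.

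The receptors for the C3 and C5 fragments were lower with rIL-4 in macrophages, C3ar1 past the threshold and C5ar1 not. C3ar1 was at 805, 1039 and 1099 CPM in PBS macrophages, at 953, 729 and 860 CPM with rIL-13 and at 679, 512 and 674 CPM with rIL-4. The rIL-4 libraries were the 3 lowest. The log2 fold change was -0.66 (SE 0.18, adjusted p = 0.0347 by edgeR) with rIL-4 and -0.20 (SE 0.18, adjusted p = 0.622) with rIL-13. The rIL-4 result missed the threshold in a model of all 18 libraries (adjusted p = 0.0839) and without PBS mouse 2 (0.107), PBS mouse 3 (0.132), rIL-4 mouse 8 (0.0513), 9 (0.0942) or 10 (0.0819). In microglia, C3ar1 was at 267, 291 and 407 CPM with PBS, at 505, 302 and 446 CPM with rIL-13 and at 354, 335 and 443 CPM with rIL-4. The groups overlapped there, and the log2 differences were 0.25 (SE 0.23) with rIL-4 and 0.38 (SE 0.23) with rIL-13, with adjusted p of 0.710 and 0.864. The rIL-4 response of C3ar1 differed between the cell types by 0.89 on the log2 scale (SE 0.30), with an adjusted p of 0.203 by edgeR without a block. With the mouse as a replicate block it was 0.90 (SE 0.18, adjusted p = 0.0440), and DESeq2 gave an adjusted p of 0.0484. C5ar1 was at 437, 626 and 562 CPM in PBS macrophages, at 267, 628 and 426 CPM with rIL-13 and at 261, 391 and 281 CPM with rIL-4. In microglia, C5ar1 was at 131, 176 and 176 CPM with PBS, at 97.5, 95.9 and 119 CPM with rIL-13 and at 68.4, 145 and 116 CPM with rIL-4. The rIL-4 macrophages did not overlap with PBS, nor did the rIL-13 microglia. The log2 differences were -0.80 (SE 0.28, adjusted p = 0.0888) in rIL-4 macrophages, -0.29 (SE 0.28, adjusted p = 0.660) in rIL-13 macrophages, and, in microglia, -0.53 (SE 0.26, adjusted p = 0.361) with rIL-4 and -0.62 (SE 0.26, adjusted p = 0.620) with rIL-13. The value for rIL-4 macrophages passed the threshold with DESeq2 (adjusted p = 0.0389), with no filter on low counts (0.0320) and in a fit of the 6 libraries alone (0.0256). As for Cfp, mice 2, 6 and 9 were the highest of their macrophage groups in C5ar1 and in the neutrophil markers, whose median log2 difference between rIL-4 and PBS macrophages was -1.16, with 0 of 7 DE by edgeR. These mice were also the highest of their macrophage groups in C3 and C4b, so that the ranking is not particular to Cfp and C5ar1. The part of neutrophils in the C5ar1 level was not tested.

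Microglia and macrophages of the same mice differed in the complement genes they held. With PBS, 8 of the 9 members were DE between the cell types, with C1qa, C1qb, C1qc and C4b higher in microglia and C3, Cfp, C3ar1 and C5ar1 higher in macrophages. The background of that comparison was 40.9% of 14715 genes, with 24.5% higher in microglia and 16.3% lower. With rIL-13, 5 of 8 members tested were DE, against 26.7% of all genes, 17.2% higher in microglia and 9.46% lower. With rIL-4, 8 of 8 were DE, against 23.4% of all genes, 13.4% higher and 9.97% lower. C2 was tested with PBS, where its log2 difference of 1.57 (SE 0.92) did not pass, and it was below the count filter in the other treatments with all mice included. With rIL-13 it passed both the filter and the test without mouse 7, whose microglia held 0 C2 counts (log2 6.20, SE 1.12, edgeR adjusted p = 0.0415), and it missed the threshold with no filter on low counts (log2 5.11, adjusted p = 0.0974) and in a joint fit of the 18 libraries (log2 5.12, 0.0788). The test of whether a cytokine response differs between the cell types called 0 of the 9 members for rIL-4 and 0 for rIL-13 by edgeR, against backgrounds of 0.992% and 0.0242%. At an unadjusted p under 0.05 it held C1qc and C3ar1 for rIL-4 and C3 for rIL-13, where 12.4% and 5.83% of all genes did so. DESeq2 called C3ar1 for rIL-4, with 4.17% of all genes, and C3 for rIL-13, with 0.931%.

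Of the members DE between the cell types with PBS, those with more reads in microglia were C4b and the C1q chains. C4b exceeded the macrophage level by a log2 of 1.61 (SE 0.27, edgeR adjusted p = 0.00152) with PBS, 1.82 (SE 0.55, adjusted p = 0.0452) with rIL-13 and 1.53 (SE 0.43, adjusted p = 0.0387) with rIL-4. C1qa did so by 0.84 (SE 0.15, adjusted p = 0.00202) with PBS, 1.09 (SE 0.34, adjusted p = 0.0517) with rIL-13 and 1.44 (SE 0.15, adjusted p = 0.000548) with rIL-4. For C1qc the values were 0.75 (SE 0.15, adjusted p = 0.00325), 0.94 (SE 0.24, adjusted p = 0.0232) and 1.46 (SE 0.17, adjusted p = 0.000970). C1qb differed least, by 0.42 (SE 0.15, adjusted p = 0.04998), 0.49 (SE 0.32, adjusted p = 0.307) and 0.67 (SE 0.16, adjusted p = 0.0194). No macrophage library reached the microglia range of the same treatment for these 4 genes, other than for C1qb and C4b with rIL-13. The share of all genes that separated the cell types in this way was not computed. With the mouse as a block, C1qa with rIL-13 passed the threshold (log2 1.04, SE 0.17, adjusted p = 0.00993). The C1qb result with PBS missed it with no filter on low counts (adjusted p = 0.0721), in a model of all 18 libraries (0.188) and without mouse 1 (0.29997) or mouse 3 (0.234), and that with rIL-4 in a model of all 18 libraries (0.0565) and without mouse 8 (0.0858), 9 (0.0676) or 10 (0.106). C1qc with rIL-13 missed it without mouse 5 (0.0674) or 7 (0.219). C4b missed it with rIL-13 without mouse 5 (0.184), 6 (0.0610) or 7 (0.0578), and with rIL-4 without mouse 8 (0.113) or 10 (0.113). Markers of other cells were also DE and higher in microglia with PBS. These were 9 of 9 tested for fibroblasts and pericytes, 4 of 5 for astrocytes and 5 of 6 for oligodendrocytes. Their part in the C4b difference was not tested.

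The members with more reads in macrophages were Cfp, C5ar1, C3ar1 and C3. The log2 difference of microglia from macrophages was -2.61 (SE 0.33) for Cfp with PBS, -2.89 (SE 0.28) with rIL-13 and -2.12 (SE 0.25) with rIL-4, with edgeR adjusted p of 0.000359, 0.000601 and 0.00100. That is a level 6.10, 7.42 and 4.36 fold higher in macrophages, and all 3 held without any single mouse. C5ar1 differed by -1.78 (SE 0.17), -2.06 (SE 0.31) and -1.47 (SE 0.30), with adjusted p of 7.7e-05, 0.00306 and 0.00992. C3ar1 differed by -1.64 (SE 0.19), -1.0025 (SE 0.23) and -0.70 (SE 0.18), with adjusted p of 0.000209, 0.0155 and 0.0282. For these 3 genes no microglia library reached the macrophage range of its treatment. C3 differed by -2.40 (SE 0.25, adjusted p = 0.000139) with PBS and -1.62 (SE 0.25, adjusted p = 0.00355) with rIL-4, where the cell types did not overlap. With rIL-13 the difference of C3 was -0.76 (SE 0.34, adjusted p = 0.148), with the microglia of mouse 6 above the macrophages of mouse 5. It passed the threshold with the mouse as a block (-0.82, SE 0.23, adjusted p = 0.0488) and without mouse 6 (-1.04, adjusted p = 0.0272). C3ar1 missed the threshold with rIL-13 without mouse 5 (0.0605) or 7 (0.131), and with rIL-4 without mouse 8 (0.193), 9 (0.0520) or 10 (0.111). C5ar1 missed it with rIL-13 without mouse 7 (0.0540) and with rIL-4 without mouse 10 (0.0629). The neutrophil markers were also lower in microglia, 5 of 5 tested with PBS (median log2 difference -3.74), 3 of 6 with rIL-13 and 4 of 6 with rIL-4, and their part in these differences was not tested.

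**Figure D5:**
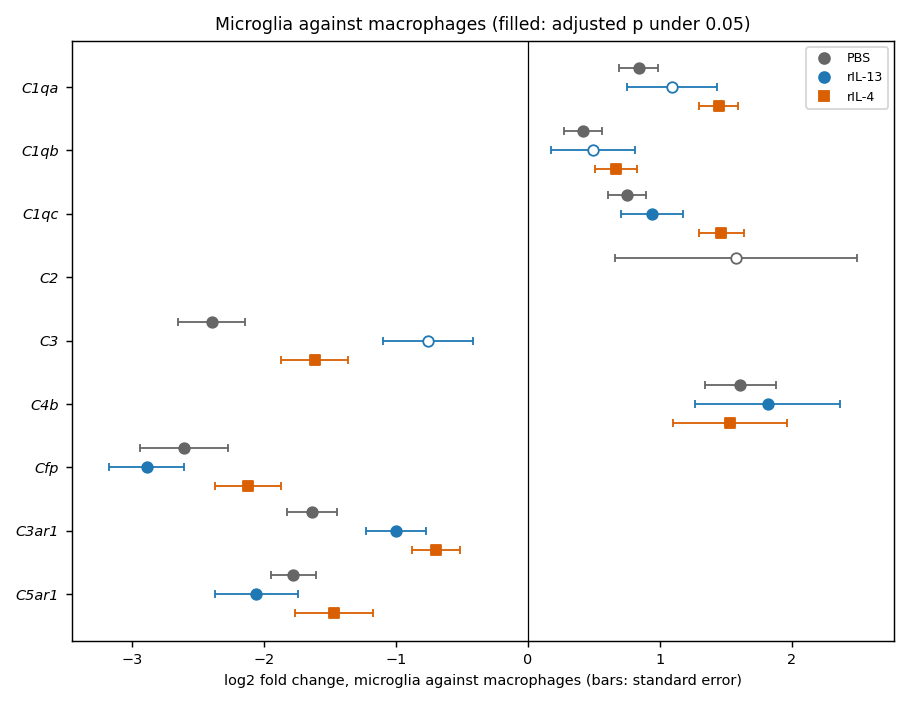
Log2 difference of microglia from macrophages for each gene within each treatment, with the SE as bars and filled points for an adjusted p under 0.05 by edgeR. C2 was tested with PBS only where all mice were included. Genes to the right of 0 have more reads in microglia, as C4b and the C1q chains, and those to the left in macrophages, where Cfp lies at -2.12 to -2.89.

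Of 51 other complement genes, 32 passed the count filter in microglia and 26 in macrophages. In microglia, 1 was DE with rIL-4 and 0 with rIL-13 by edgeR, where 2.22% and 0.366% of all genes were. It was Itgam, the alpha chain of complement receptor 3, which fell from 578 ± 150 to 233 ± 51.4 CPM (SD, n = 3), a log2 change of -1.29 (SE 0.27, adjusted p = 0.0410). In macrophages, 6 of the 26 were lower and 2 higher with rIL-4, where 7.2% of all genes were lower and 6.77% higher, and 1 was higher with rIL-13, where 2.53% were. The largest changes among those lower were of Masp1, a protease of the lectin pathway, from 0.559 ± 0.273 CPM to a level listed at 0 in each rIL-4 library, and of vitronectin (Vtn), from 1.28 ± 0.981 to 0.0172 ± 0.0149 CPM. Colec12, a scavenger receptor, fell from 14.3 ± 1.86 to 1.39 ± 0.617 CPM (adjusted p = 0.00154). These 3 were higher in microglia libraries, with Colec12 at 75.2 ± 15.9, Vtn at 154 ± 62.1 and Masp1 at 2.84 ± 1.46 CPM in PBS microglia, and Vtn is also made by pericytes, whose listed markers, with those of fibroblasts, summed to between 5.09 and 8.62 CPM in PBS macrophages and between 0.307 and 1.36 CPM in rIL-4 macrophages, with 4 of 7 tested DE and lower. The 11 microglia markers were all DE and lower in the same comparison, with a median log2 change of -3.76. The part of either list in the result was not tested, and the sort is set to leave fibroblasts and pericytes out. C1ra, a protease of the C1 complex, was the gene higher with both cytokines in macrophages, at 10.9 ± 2.15 CPM with PBS, 19.99 ± 0.765 with rIL-13 and 18.7 ± 3.62 with rIL-4 (adjusted p of 0.0364 and 0.0252). Itgam and C5ar2, the second C5a receptor, fell in rIL-4 macrophages by 0.71 (SE 0.16) and 0.74 (SE 0.21) on the log2 scale, and Calr rose by 0.69 (SE 0.15). Calr, a chaperone that also binds C1q, was the gene of the 36 tested whose rIL-4 response differed between the cell types (log2 difference -0.94, SE 0.19, adjusted p = 0.0282). Between microglia and macrophages with PBS, 14 of 31 were higher in microglia and 9 lower, beside 24.5% and 16.3% of all genes. Those with the largest difference were C6, at 3.42 ± 1.38 CPM against none, Serping1, the C1 inhibitor, at 181 ± 49.0 against 0.319 ± 0.199 CPM, Fcnb, at none against 1.37 ± 0.729 CPM, and Cfi, at 1.14 ± 0.450 CPM against none. The fibroblast and pericyte markers were likewise higher in these microglia libraries, 9 of 9 with a median log2 difference of 8.63, and their part in the levels of C6, Serping1 and Cfi was not tested. Of these lists, C1ra, Calr, C5ar2 and Itgam were named after their values were seen.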

How the data were processed

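SMART-seq2 libraries, which amplify full-length cDNA by PCR without molecular identifiers or strand information, were made from sorted microglia and macrophages of 9 mice. The authors mapped reads to GRCm38 with STAR 2.5.3a and counted genes with RSEM 1.3.0, per the labels; the annotation release is not given in the sources used here. The deposited values are RSEM expected counts written as whole numbers, in which reads that match several genes are divided between them. For each cell type, edgeR 4.0.16 (R 4.3.3) was fitted to the 9 libraries with filterByExpr, TMM and the quasi-likelihood test, with Benjamini-Hochberg adjustment over all genes tested. Cell types were compared within a treatment in 6 libraries, and their responses in all 18. SEs come from the F statistic. Levels are CPM on TMM library sizes, and per kb on the exon union of GENCODE M21. The scripts were tested on simulated data. Both cell types come from the same mouse, so the fit with the mouse as a block is given where it changes a call; the deviations of a mouse's libraries correlated by 0.0663 to 0.269 over 11192 genes. DESeq2 1.42.0, other size factors, filters and library sets, and leaving out each mouse were the alternatives. The members and lists were chosen with earlier results of these data known. All 9 members are named, with the other complement genes of the 4 largest DE folds per comparison; a few genes that this rule or the likeness rule picks are not reported here. Itgam had 2 gene identifiers, and the one with more counts was used. Input RNA varied between samples and is not given per library.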

Additional observations from a re-analysis of the deposited data

Results flagged for a closer look

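The response of C3ar1 to rIL-4 differed between microglia and macrophages when the mouse was a replicate block, by 0.90 on the log2 scale (SE 0.18, adjusted p = 0.0440 by edgeR's quasi-likelihood test). Without the block the difference was 0.89 (SE 0.30, adjusted p = 0.203), and leaving out each mouse in turn from that fit gave adjusted p between 0.191 and 0.524. The C3ar1 level was lower in all 3 rIL-4 macrophage libraries than in the PBS macrophages, and in microglia the treatments overlapped.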

How the results depend on the processing

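Of 1060 alternative values for 97 member results, 979 kept their direction and their side of the threshold, 35 lost a call, 28 gained one and 18 changed sign, 0 of them among the 31 called results. The number of members DE with rIL-4 in microglia was 4 with DESeq2, which called 7.81% of all genes, and between 1 and 2 without each mouse in turn, where 0.459% to 1.62% of all genes were called. For rIL-13 microglia the same gave 0 to 1 (0.135% to 0.308% of all genes), and for rIL-4 against rIL-13 it was 1 with DESeq2. In macrophages, the rIL-4 count was 8 with DESeq2 (19.6% of all genes) and between 4 and 6 without each mouse (7.39% to 11.4%), with 4 without PBS mouse 3. The rIL-13 count was 3 with DESeq2 (8.55%), 2 with no filter on low counts (3.26%) and between 1 and 2 without each mouse (1.41% to 3.76%), and rIL-4 against rIL-13 gave 2 with DESeq2 and 2 with no filter (3.09% and 0.896%). Between the cell types, leaving out each mouse gave 2 to 5 members under rIL-13 (8.44% to 25.4%) and 4 to 6 under rIL-4 (12.9% to 18.3%). The rIL-4 response differed between the cell types for 1 member with DESeq2 and for 1 with the mouse as a block (1.14% of all genes), and the rIL-13 response for 1 with DESeq2. The block reversed C2 (-1.30) and C4b (-0.024) in these differences, called no other member there, and beside C1qa and C3 with rIL-13 changed no call between the cell types. Without each mouse, log2 values that changed sign ranged from -0.72 to 0.32 for C4b (rIL-13 microglia), -0.32 to 0.028 for C3ar1 and -0.16 to 0.34 for C5ar1 (rIL-4 against rIL-13, microglia), -0.57 to 0.042 for C4b (rIL-13 macrophages) and -0.83 to 1.56 for C2 (rIL-4 against rIL-13, macrophages). For the difference in the rIL-4 response C2 ranged from -1.60 to 0.37, and for the rIL-13 response C1qb from -0.11 to 0.18, C1qc from -0.041 to 0.31, C4b from -0.14 to 0.30, Cfp from -0.52 to 0.070 and C5ar1 from -0.54 to 0.073. The cause was not tested. The summed level of the members was 4719 CPM in rIL-13 macrophages without TMM against 5489, and in rIL-4 macrophages 3657 without TMM and 3828 with DESeq2 size factors against 4034. The spread of C2 between mice limits its precision.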
